A study of Mus musculus with 6 samples.

Results

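The transcripts described here are 10 of the 55487 genes in the deposited count table: the EGR transcription factors Egr1, Egr2 and Egr3, the orphan nuclear receptors Nr4a1 and Nr4a2, and Ier2, Ier3, Dusp1, Btg2 and Zfp36. They were chosen by name as immediate early genes, and their symbols were found through the Ensembl identifiers and GENCODE M21. The labels and the design text name the samples as megakaryocyte-erythroid progenitors sorted from bone marrow, the cells that give rise to platelets and red cells, and the study asked how a short fast acts on red cell production. The labels' RNA extraction protocol, however, is written for ground tissue and leaves the handling of sorted cells unstated. The cell content of the libraries therefore rests on the labels and on the markers given below. All mice were wild-type C57BL/6 animals of 8 weeks. The control group held 3 libraries from mice labelled control, and the fasted group held 3 libraries from mice fasted for 6 h. The labels do not say whether a library is 1 mouse or a pool, so p-values measure the spread between these libraries only.

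Immediate early genes are transcribed within minutes of a signal, from factors that already sit in the cell, and most of their transcripts are short-lived. Serum response factor with its ETS partners, and CREB, carry signals of the MAP kinase and calcium or cAMP pathways to their promoters. Their products either pass the signal on, as the EGR and NR4A factors do, or limit it, as Dusp1 and Zfp36 do. They also respond to the handling of cells during dissociation and sorting.

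Total counts ran from 12797144 to 30246110 a library, with the control libraries the deepest. Counts also fell on odorant and vomeronasal receptor genes, which blood progenitors are not known to use. That background took an estimated 3.90%, 6.55% and 8.58% of the control libraries and 11.5% to 14.6% of the fasted libraries. The 10648 genes with a mean of at least 5 times the background were therefore tested, and CPM below takes the summed counts of these genes, after TMM scaling, as the library size. The edgeR quasi-likelihood test called 0 genes, or 0% of them, at a Benjamini-Hochberg adjusted p under 0.05, with a smallest adjusted p of 0.0900. An unadjusted p under 0.05 was found for 2115 genes. On the same genes limma-voom called 0 and DESeq2 called 501, none of them an immediate early gene described here. The erythroid markers Gata1 and Klf1 were well above background in every library, and all 7 erythroid markers passed the filter. Granulocyte transcripts were present too, as given below.

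Control library 1 stood apart from the other 5 libraries for these transcripts. It was the lowest of the 6 libraries for 9 of the 10 genes, and for 8 of the 9 that passed the filter, where 26.8% of all genes tested had their lowest value in that library. Nr4a1 in control library 1 was at 1.05% of the mean of the other control libraries, Egr3 at 2.01%, Egr2 at 5.32%, Egr1 at 12.2%, Nr4a2 at 16.6%, Ier3 at 20.2%, Btg2 at 21.9%, Zfp36 at 27.4%, Ier2 at 39.9% and Dusp1 at 78.4%. It was also the deepest library, with the smallest background. For the 9 genes that passed the filter, and for the medians of the related gene lists, the comparison is therefore given with and without it.

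**Figure D1:**
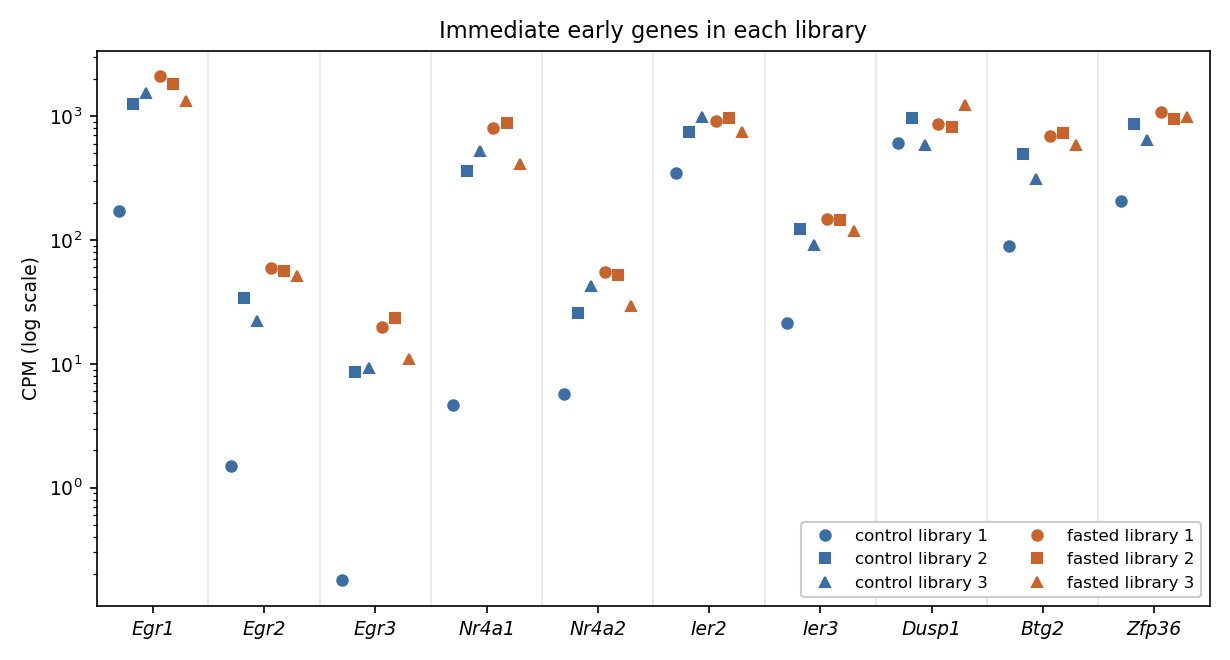
Expression of the 10 immediate early genes in each library, in CPM on a log axis, with control libraries 1 to 3 followed by fasted libraries 1 to 3. Control library 1 is the lowest point for every gene except Dusp1, and the fasted libraries of Egr2, Egr3, Btg2 and Zfp36 lie above all 3 control libraries. Egr3 is near background, and CPM is not corrected for it.

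The EGR proteins are zinc finger transcription factors that bind GC-rich sites. Egr1, on chromosome 18 at 34859823 to 34864984 (GRCm38, plus strand), was at 171, 1260 and 1540 CPM in control libraries 1 to 3 and at 2112, 1814 and 1316 CPM in fasted libraries 1 to 3. Fasted library 3 lay inside the control range, so the groups overlapped. The log2 fold change of fasted over control was 0.82 (SE 0.78, adjusted p = 0.591 by edgeR), and without control library 1 it was 0.32 (SE 0.21, adjusted p = 0.449 by edgeR).

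Egr2 lies on chromosome 10 at 67535475 to 67542188 and is known for roles in myelination and in lymphocytes. Its level was 1.50, 34.0 and 22.2 CPM in the control libraries and 59.0, 56.6 and 50.8 CPM in the fasted libraries. Every fasted library was above every control library, and the fasted libraries lay close to each other. The 42 counts in control library 1 were only 1.38 times those expected from background alone. The log2 fold change was 1.53 (SE 0.97, adjusted p = 0.424 by edgeR). Without control library 1 it was 0.98 with a much smaller SE of 0.21, an unadjusted p of 0.00111 and an edgeR adjusted p of 0.137.

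Egr3, on chromosome 14 at 70077203 to 70082614, was the scarcest of the 10 and did not pass the filter, since its mean was 3.14 times the background. Raw counts were 5, 202 and 182 in the control libraries and 230, 367 and 144 in the fasted libraries, or 0.178, 8.56 and 9.20 CPM against 19.98, 23.4 and 10.9 CPM. On CPM, which is not corrected for background, the fasted libraries were again above all control libraries, by a narrow margin in fasted library 3. Counts in fasted library 3 were 2.21 times the expected background, below the 3.49 and 2.82 times of control libraries 2 and 3. Background was thus a larger part of the Egr3 counts in fasted library 3. The 5 counts of control library 1 (exact Poisson 95% interval 1.62 to 11.7, which covers counting error only) were below the 39.6 expected from background. A fit of all 36508 genes kept by filterByExpr put its fasted over control difference at 1.21 on the log2 scale (SE 1.18, adjusted p = 0.528 by edgeR).

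NR4A receptors act as transcription factors without a known ligand and are used as markers of recent signalling in lymphocytes. Nr4a1, also called Nur77, lies on chromosome 15 at 101254269 to 101274795. It gave 4.63, 359 and 526 CPM in the control libraries and 799, 875 and 412 CPM in the fasted libraries. It had the widest spread of the 10 genes, with 189 times more in the highest than in the lowest library, but only 2.44 times once control library 1 was left out. The groups overlapped through control library 3 and fasted library 3. Control library 1 had 130 counts of Nr4a1 (exact Poisson 95% interval 109 to 154) where the next lowest library had 5465, and those 130 were 4.12 times the expected background. The log2 fold change was 1.23 (SE 1.36, adjusted p = 0.647 by edgeR), and without that library 0.65 (SE 0.35, adjusted p = 0.391 by edgeR).

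Nr4a2, or Nurr1, lies on chromosome 2 at 57106830 to 57124003 on the minus strand and is best known for its part in dopamine neurons. It was at 5.70, 25.8 and 42.8 CPM in the control libraries and at 55.3, 51.8 and 29.2 CPM in the fasted libraries. Its libraries stood in the same order as those of Nr4a1 except for the 2 highest, and the groups overlapped in the same way. The fitted log2 fold change was 0.88 (SE 0.69, adjusted p = 0.511 by edgeR), or 0.41 (SE 0.32, adjusted p = 0.543 by edgeR) without control library 1.

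Ier2 and Ier3 encode small immediate early proteins, of which Ier3 acts in survival signalling. Ier2, on chromosome 8 at 84661331 to 84662852 in M21 (another version of the gene model than the deposited one), was at 347, 751 and 987 CPM in the control libraries and at 908, 972 and 745 CPM in the fasted libraries. Apart from control library 1 its libraries overlapped fully, within a range of 1.33 times. The log2 fold change was 0.33 (SE 0.35, adjusted p = 0.615 by edgeR) and was 0.01 (SE 0.17, adjusted p = 0.987 by edgeR) without control library 1. It was -0.11 when all filtered genes were scaled together.

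Ier3 lies on chromosome 17 at 35821684 to 35822923. It was at 21.5, 122 and 91.1 CPM in the control libraries and at 147, 145 and 118 CPM in the fasted libraries. The groups overlapped by a single pair, control library 2 and fasted library 3. In the fit of all libraries the log2 fold change was 0.81 (SE 0.60, adjusted p = 0.492 by edgeR), or 0.36 (SE 0.17, adjusted p = 0.319 by edgeR) without control library 1.

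Dusp1 encodes a nuclear phosphatase that switches off MAP kinases, and its gene is a textbook target of glucocorticoids as well as of growth factors. It lies on chromosome 17 at 26505590 to 26562128 on the minus strand, and 11 of its exonic bases overlap Ergic1 on the other strand. Dusp1 was at 608, 966 and 586 CPM in the control libraries and at 866, 814 and 1237 CPM in the fasted libraries. It was the exception among the 10: control library 3, not control library 1, was the lowest, and fasted library 3 was the highest. The groups overlapped, with a log2 fold change of 0.43 (SE 0.23, adjusted p = 0.329 by edgeR) that became 0.33 (SE 0.26, adjusted p = 0.544 by edgeR) without control library 1 and -0.10 when all filtered genes were scaled together.

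Btg2 encodes an antiproliferative protein that recruits the CCR4-NOT deadenylase and is also a p53 target. The gene lies on chromosome 1 at 134075170 to 134079120 on the minus strand. Its level was 88.7, 497 and 312 CPM in the control libraries and 687, 734 and 588 CPM in the fasted libraries. All fasted libraries were above all control libraries. The log2 fold change was 1.16 (SE 0.60, adjusted p = 0.340 by edgeR). Without control library 1 it was 0.73 (SE 0.20), with an unadjusted p of 0.00661 and an edgeR adjusted p of 0.167.

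Zfp36 encodes tristetraprolin, which binds AU-rich elements and speeds the decay of cytokine and immediate early transcripts. It lies on chromosome 7 at 28376784 to 28380253 on the minus strand, and 125 exonic bases overlap the antisense gene Gm44710, whose reads cannot be told apart here because strand handling was not stated. Zfp36 was at 208, 872 and 643 CPM in the control libraries and at 1089, 958 and 989 CPM in the fasted libraries. The fasted libraries were the 3 highest and lay close together. On the log2 scale the fold change was 0.82 (SE 0.49, adjusted p = 0.392 by edgeR), and without control library 1 it was 0.42 (SE 0.16), with an unadjusted p of 0.0269 and an edgeR adjusted p of 0.240.

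Side by side, the fitted log2 fold change was above 0 for all 9 genes tested, except that Dusp1 and Ier2 were below 0 with TMM over all filtered genes. The median of the 9 was 0.82 where the median over all genes tested was 0.02. With TMM over all filtered genes these medians were 0.41 and -0.50, so that scaling lowered the 10648 genes as a whole. None of the 9 passed the threshold, and none had an unadjusted p under 0.05. Without control library 1 the median was 0.41, all 9 fold changes were smaller, and 3 genes, Egr2, Btg2 and Zfp36, had an unadjusted p under 0.05 with none passing after adjustment. Of the 10648 genes, 1795 had an unadjusted p under 0.05 in that edgeR fit, and 2115 with all libraries. Control library 1 was singled out because these same genes were low in it. On CPM, the groups did not overlap, with fasted higher, for 4 of the 10 genes, including Egr3 near background, or 3 of the 9 tested. Over all genes tested that held for 1534, or 14.4%, and the opposite order held for 1379, or 13%. The same count of 4 of 10, or 3 of 9, was found without control library 1, where 2052 genes, or 19.3%, had the fasted libraries higher. In bulk RNA, more cells that hold a transcript and more of it per cell cannot be told apart.

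**Figure D2:**
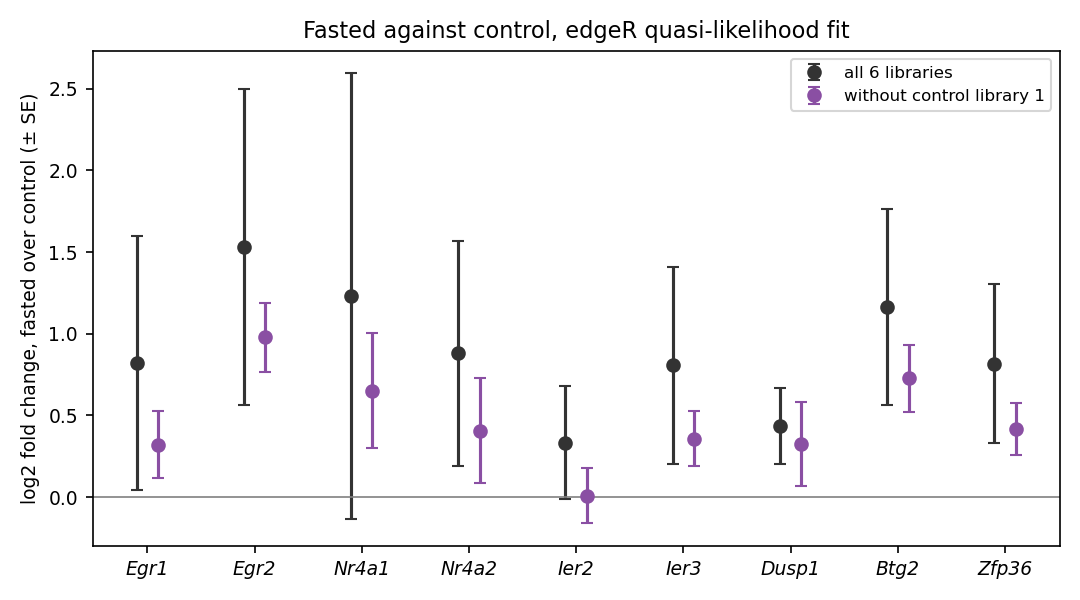
Log2 fold change of fasted over control for each gene tested, with bars of 1 SE, in the fit of all 6 libraries and in the fit without control library 1. All 9 points are above 0 in both fits, though Dusp1 and Ier2 are below 0 with TMM over all filtered genes, and leaving out control library 1 lowers each fold change.

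Beyond control library 1, 2 patterns could be described, drawn after the values were seen. Egr1, Egr3, Nr4a1, Nr4a2 and Ier2, 5 of the 10, were higher in control library 3 than in control library 2, and all 5 had their lowest fasted value in fasted library 3. Egr2, Ier3, Dusp1, Btg2 and Zfp36 were higher in control library 2. Of these, Egr2, Ier3 and Btg2 also had their lowest fasted value in fasted library 3, whereas Dusp1 was highest there. The genes whose groups did not overlap came mostly from the second pattern, with Egr3 from the other.

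Levels between genes can be compared per kilobase of exon. In the fasted libraries the mean CPM per kilobase was highest for Ier2 at 574, followed by Egr1 at 390, Dusp1 at 294, Zfp36 at 292, Btg2 at 244, Nr4a1 at 198 and Ier3 at 121. Egr2 at 16.3, Nr4a2 at 11.2 and Egr3 at 4.10 formed a lower tier. In this order the fasted libraries of Egr1 and Dusp1, of Dusp1 and Zfp36, of Btg2 and Nr4a1 and of Nr4a1 and Ier3 overlapped, while those of the other neighbouring pairs did not. The same 3 genes had the lowest means over the control libraries, with 5.66 for Egr2, 6.10 for Nr4a2 and 1.36 for Egr3. In control library 1 alone Nr4a1, at 1.32, was below Nr4a2, at 1.41.

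From RefSeq's promoter table (GRCm38.p6), 11 windows were searched for 7 of the 10 genes, Egr2, Nr4a1, Nr4a2, Ier3, Dusp1, Btg2 and Zfp36. Each was searched over the 250 bases before its start on both strands. Egr1 was left out of the search, and the table held no window for Egr3 and Ier2. The counts of genes with a match therefore do not cover Egr1, Egr3 and Ier2. The motifs were the full CREB site TGACGTCA, its core TGACG (which the full site contains), the EGR site GCGNGGGCG and the CArG box, the site of serum response factor, named only. In that order, the shares with a match were 1.55%, 17.8%, 4.70% and 1.47% of the 32851 windows searched as background. They were 1.77%, 19.8%, 5.33% and 1.62% of the 27025 genes of those windows, counted like the genes here by any window. The full CREB site was found in 2 of the 7 genes, Btg2 and Dusp1, and its core in 5. An EGR site was found in 4, Btg2, Nr4a1, Nr4a2 and Zfp36, a CArG box in 2, Egr2 and Zfp36, and no match in Ier3. Of the windows, 4 are shown 5′ to 3′ with every match in capitals: Egr2 and Btg2 because their groups did not overlap, Nr4a1 because it had the widest spread over libraries, and Dusp1 because it was the exception in control library 1. They are chr10:67537619-67537868 on the plus strand for Egr2, chr1:134079156-134079405 on the minus strand for Btg2, chr15:101266596-101266845 on the plus strand for Nr4a1 and chr17:26508520-26508722 on the minus strand for Dusp1. Of the 5 Egr2 windows 4 hold a CArG box, and the one shown is the one outside M21 exons that also holds CREB cores. The Dusp1 window was trimmed to bases outside M21 exons. The groups of Zfp36 did not overlap either, but all 250 bases of its window lie inside an M21 exon, so its EGR and CArG matches are exonic in that annotation and the window is not shown.
Egr2: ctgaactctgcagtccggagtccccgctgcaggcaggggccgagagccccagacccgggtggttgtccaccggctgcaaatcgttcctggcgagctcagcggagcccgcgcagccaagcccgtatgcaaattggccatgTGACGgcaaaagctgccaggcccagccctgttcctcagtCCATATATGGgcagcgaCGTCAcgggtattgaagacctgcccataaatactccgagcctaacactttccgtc
Btg2: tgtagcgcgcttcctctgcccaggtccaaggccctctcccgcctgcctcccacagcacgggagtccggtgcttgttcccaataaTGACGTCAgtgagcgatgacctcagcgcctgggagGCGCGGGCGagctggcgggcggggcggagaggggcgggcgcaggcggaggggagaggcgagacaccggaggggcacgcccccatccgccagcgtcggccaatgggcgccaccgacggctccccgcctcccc
Nr4a1: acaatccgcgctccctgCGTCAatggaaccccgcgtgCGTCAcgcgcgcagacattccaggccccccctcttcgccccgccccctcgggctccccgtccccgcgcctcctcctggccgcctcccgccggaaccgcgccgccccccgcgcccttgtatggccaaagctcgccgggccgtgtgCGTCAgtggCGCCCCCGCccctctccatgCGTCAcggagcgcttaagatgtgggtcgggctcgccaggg
Dusp1: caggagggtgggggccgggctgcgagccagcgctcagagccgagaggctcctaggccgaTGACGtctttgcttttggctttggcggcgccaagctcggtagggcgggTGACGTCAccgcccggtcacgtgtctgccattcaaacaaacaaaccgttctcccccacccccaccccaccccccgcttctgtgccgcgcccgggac
In these windows the CArG box of Egr2 began 72 bases before the start, the full CREB site of Btg2 166 bases and that of Dusp1 143 bases before it, and the EGR sites of Btg2 and Nr4a1 131 and 60 bases before it. Of the pair with the full CREB site, Btg2 was lowest in control library 1 and Dusp1 in control library 3. A match is a description of letters, not a shown site.

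Family members outside the 10 genes spanned a wide range. Egr4 stayed below background, with a mean of 0.41 times it, and Nr4a3 was at 1.33 times background, so neither passed the filter. Among relatives of Zfp36, Zfp36l2 varied by 1.44 times and Zfp36l1 by 2.50 times over the 6 libraries, against 5.25 times for Zfp36. Btg1 varied by 3.13 times, Tob1 by 3.61 times and Tob2 by 2.02 times, against 8.27 times for Btg2. Among the MAP kinase phosphatases the order was reversed: Dusp1 varied by 2.11 times, less than Dusp6 at 3.48 times, Dusp2 at 3.95 times and Dusp5 at 24.7 times. These orders rested largely on control library 1. Without it Zfp36 varied by 1.69 times, Zfp36l1 by 1.63 times and Zfp36l2 by 1.44 times. Btg2 then varied by 2.35 times, Btg1 by 2.41 times, Tob1 by 1.55 times and Tob2 by 1.45 times. Dusp1 stayed at 2.11 times, above Dusp2 at 1.91 times and Dusp6 at 1.80 times but below Dusp5 at 3.13 times.

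**Figure D3:**
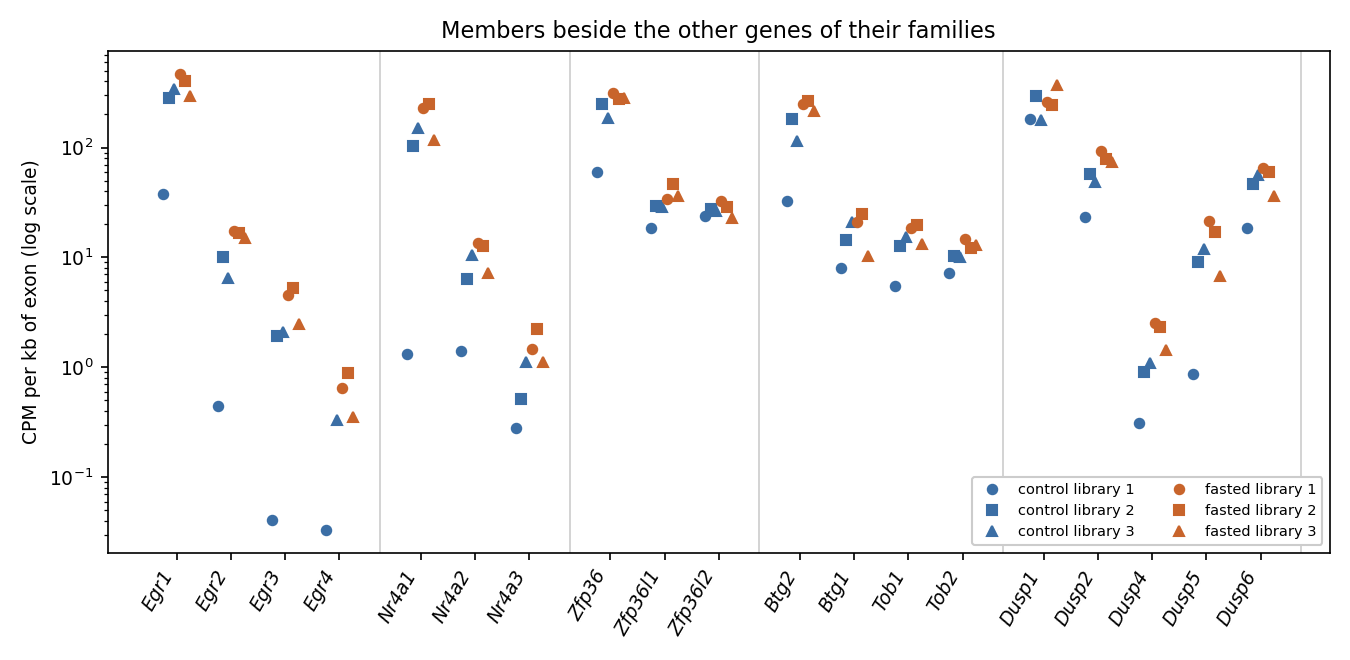
CPM per kilobase of exon, on a log axis, in each library for the genes described other than Ier2 and Ier3, and for relatives of the same families. Egr4 in control library 2 had 0 counts and is not drawn on the log axis. Dusp2, Dusp5, Dusp6, Zfp36l1, Btg1, Tob1 and Tob2 are lowest in control library 1, whereas Zfp36l2 is lowest in fasted library 3.

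Of a list of 22 other immediate early transcription factors, 16 passed the filter, 0 passed the threshold, 15 had a fold change above 0 (13 with TMM over all filtered genes) and 14 were lowest in control library 1. Their median log2 fold change was 0.69, or 0.38 without control library 1, where 12 of the 16 were above 0. The groups did not overlap for 2, both higher in fasted, an order found for 14.4% of all genes tested. Klf2, a factor of quiescent endothelial and lymphoid cells, was at 2.78, 49.8 and 54.9 CPM in the control libraries and at 80.8, 85.6 and 74.7 CPM in the fasted libraries (log2 fold change 1.17, SE 0.96, edgeR adjusted p = 0.536). Jun, a subunit of AP-1, was at 622, 1056 and 981 CPM against 1245, 1394 and 1175 CPM (log2 fold change 0.52, SE 0.20, edgeR adjusted p = 0.203).

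Feedback and effector genes of the same response numbered 36, of which 31 passed the filter and 0 the threshold. A fold change above 0 was found for 29 of them (18 with TMM over all filtered genes), 27 were lowest in control library 1, and the median log2 fold change was 0.58. Without that library the median was 0.21, and 22 of the 31 were above 0. The groups did not overlap for 7, all higher in fasted, where the share over all genes tested was 14.4%. The 4 largest of these were Tnfaip3, an inhibitor of NF-kB signalling, at 1.03 (SE 0.93), Dusp2 at 0.93 (SE 0.30), the cytokine signalling inhibitor Socs3 at 0.69 (SE 0.34) and the insulin receptor substrate Irs2 at 0.66 (SE 0.22). Of these 4, Tnfaip3 was at 24.0, 401 and 305 CPM in the control libraries and 427, 503 and 565 CPM in the fasted libraries.

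Tristetraprolin is known to bind AU-rich elements of cytokine transcripts. Of 10 cytokine and inflammatory genes of that kind, 5 passed the filter, 0 passed the threshold, all 5 had a fold change above 0 under each scaling, and all 5 were lowest in control library 1. Their median log2 fold change was 0.99, or 0.45 without that library. For 1, the neutrophil-attracting chemokine Cxcl2, the groups did not overlap: 0.856, 52.9 and 32.9 CPM in the control libraries and 63.6, 74.9 and 67.8 CPM in the fasted libraries. Over all genes tested that order held for 14.4%.

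Of 28 kinases and transcription factors that act upstream of immediate early promoters, 22 passed the filter, 0 passed the threshold, 13 had a fold change above 0 and 9 below (0 and 22 with TMM over all filtered genes, which called Map2k1 and Nras as lower), and 12 were lowest in control library 1. Their median log2 fold change was 0.14, or 0.02 without that library. The groups did not overlap for 2 with fasted higher and 4 with fasted lower, orders found for 14.4% and 13% of all genes tested. Of those in the list, the largest were the CREB coactivator Crtc3 at 0.39 (SE 0.13) and Nras at -0.33 (SE 0.14). They were followed by the MAP kinase kinase Map2k1 at -0.31 (SE 0.14) and the ETS factor Elk3 at -0.30 (SE 0.22).

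Of 9 heat shock genes that are known to respond to cell dissociation, 7 passed the filter, 0 passed the threshold, and 2 were lowest in control library 1. A fold change above 0 was found for 3 and below 0 for 4, with a median of -0.02, or 0.11 without that library; with TMM over all filtered genes 6 were below 0. The groups did not overlap for 2, with fasted lower: the chaperones Hsp90aa1 and Hspe1, both at -0.23 (SE 0.13 and 0.14). That order held for 13% of all genes tested.

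**Figure D4:**
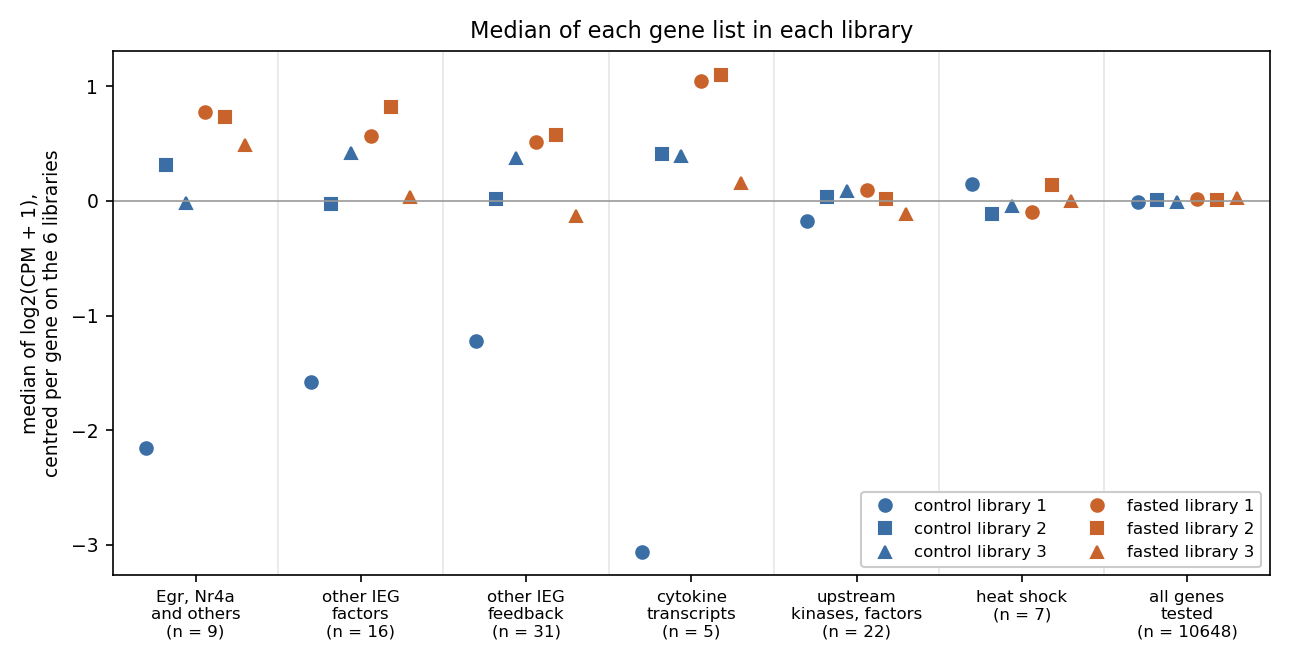
Median centred log2 expression of each gene list in each library, in which 0 is a gene's mean over the 6 libraries. The immediate early lists dip in control library 1, by -2.15 for the 9 genes tested and -3.06 for the cytokine list, while the upstream list at -0.18 and the heat shock list at 0.15 stay near 0.

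Markers of other blood cells were measured beside these genes. All 10 granulocyte markers passed the filter and none was at 0. Their summed level was 3558, 12099 and 18525 CPM in the control libraries and 4454, 3074 and 1875 CPM in the fasted libraries, so control library 1 was the lowest of its group while the fasted libraries were low as well. Within that list, 5 markers, S100a8, S100a9, Ltf, Camp and Ngp, were lowest in control library 1, and S100a8 stood at 72.9, 539 and 802 CPM against 227, 297 and 396 CPM. The other 5, Mpo, Elane, Prtn3, Ctsg and Cebpe, were lowest in a fasted library. Of these, Mpo stood at 2580, 7014 and 10883 CPM against 2732, 1639 and 572 CPM. The summed monocyte markers, of which 5 of 6 passed the filter, were 359, 559 and 688 CPM against 554, 485 and 231 CPM, or 356, 554 and 679 CPM against 544, 479 and 223 CPM for those 5.

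Whole-list sums include markers near background, which was higher in the fasted libraries, so sums over the markers that passed the filter are given beside them. B and T lymphocyte markers, of which 4 of 9 passed, summed to 69.4, 118 and 103 CPM in the control libraries and 220, 153 and 111 CPM in the fasted libraries. Those 4 alone summed to 49.98, 86.95 and 75.9 CPM against 146, 99.8 and 55.8 CPM. Control library 1 was the lowest by either sum, and fasted library 1 the highest. Mast cell and basophil markers, 4 of 5, ran the other way, at 219, 115 and 172 CPM against 119, 85.1 and 57.0 CPM, or 218, 112 and 169 CPM against 115, 80.9 and 53.95 CPM for those 4. Erythroid markers, 7 of 7, summed to 3373, 3464 and 1772 CPM against 2869, 3220 and 4361 CPM, and megakaryocyte markers, 4 of 6, to 544, 422 and 447 CPM against 404, 403 and 250 CPM, or 495, 374 and 396 CPM against 342, 349 and 181 CPM for those 4. The share of counts on mitochondrially encoded genes was lowest in control library 1, at 1.26%, and highest in fasted library 2, at 2.89%. The part of other cell types, background and depth in the immediate early values was not tested.

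Outside the 10 genes, the 5 whose centred log2 CPM lay nearest to the mean profile of the 9 genes tested over the 6 libraries were Gm43430, Cd69, Plk2, Rhob and Ptgs2. Their root mean square distances were 0.133, 0.185, 0.213, 0.227 and 0.239, where the genes themselves ranged from 0.17 for Ier3 to 1.45 for Nr4a1. Gm43430 is an unnamed model inside Nfkb1 on the same strand, so its reads may be those of Nfkb1. Cd69, an activation marker of lymphocytes, was at 48.4, 379 and 305 CPM in the control libraries and at 377, 427 and 414 CPM in the fasted libraries. Ptgs2, the inducible cyclooxygenase, was at 3.21, 22.8 and 28.8 CPM against 37.7, 47.6 and 22.98 CPM. These genes were found by likeness to the profile and so support nothing on their own.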

How the data were processed

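The deposited table holds raw counts per gene of bulk RNA-seq in 6 libraries, with exonic lengths. HISAT2 2.2.1, featureCounts 2.0.1 and GRCm38 are named in the submitters' processing notes. Annotation, strand and multi-mapping settings are not given in the sources used here. All 54435 identifiers that matched GENCODE M21 with their version had the deposited length. The 10 genes and all lists were chosen with earlier results of these data known.

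Background was the rate of counts per exonic base over 1466 odorant and vomeronasal receptor genes. Genes kept by filterByExpr with a mean count of at least 5 times their expected background were scaled by TMM and tested with edgeR 4.0.16 in R 4.3.3 (robust quasi-likelihood fit, group as the only term, Benjamini-Hochberg, threshold 0.05). Scaling over all filtered genes, where most are at background level, was an alternative, because background differed between groups. CPM uses the tested genes' total times the TMM factor as the library size. The SE of a log2 fold change is its size over the square root of F. Profiles used log2 of CPM plus 1. Named genes were the 10, up to 4 per list with groups that did not overlap and the largest fold changes, and the 5 nearest profiles. Alternatives were other scalings, filters, DESeq2 1.42.0, limma-voom (limma 3.58.1), a replicate block and leaving out each library. The method was tested on simulated counts.

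Samples with the same number did not deviate together, so the numbers were not taken to pair them.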

Additional observations from a re-analysis of the deposited data

How the results depend on the processing

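Across 18 alternatives and the 9 genes tested, 160 of 162 log2 fold changes were above 0 and none passed the threshold (adjusted p from 0.137 to 0.987). The exceptions were Dusp1 at -0.10 and Ier2 at -0.11, both with TMM over all filtered genes, which puts the median of the 10648 tested genes at -0.50 and that of all 36508 filtered genes at 0.32. Library totals over all filtered genes called Jun, Dusp2 and Zfp36l1 among the related lists. The median of the 9 ran from 0.41, both with TMM over all filtered genes and without control library 1, to 1.30 with limma-voom. The number of genes called was 1813 (420 higher, 1393 lower) with TMM over all filtered genes, 4523 (4224 higher, 299 lower) with their library totals alone, 6 (1 higher, 5 lower) at 3 times the background, 501 (325 higher, 176 lower) with DESeq2, and 0 to 3 when a library was left out, with 3 both without control library 1 and without control library 3. The cause was not tested. With the replicate number as a block, 0 genes were called and the median of the 9 was 1.20. Correlations of same-numbered deviations were -0.18, 0.14 and -0.37, and samples that share a number were not taken as pairs. With all 6 libraries the SE of the 9 fold changes ran from 0.23 for Dusp1 to 1.36 for Nr4a1, and counts of Egr2 and Egr3 in control library 1 were near or under background. Egr3, under the filter, was at 1.21 in the all-gene fit.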

Other observations

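Some immediate early and stress genes departed from the pattern of the 10 in control library 1. They were chosen after their values were seen, and each is given as a description. Myc, a driver of growth and proliferation and an immediate early gene in many cells, was highest in control library 1, at 1037, 415 and 360 CPM in the control libraries and 359, 277 and 387 CPM in the fasted libraries. Fasted minus control, this came to -0.83 on the log2 scale (SE 0.42, edgeR adjusted p = 0.328), and to -0.19 (SE 0.16) without that library. Hspa8, the constitutive HSP70 chaperone, was likewise highest there, at 6468 CPM, where the other 5 libraries held 4525 to 5764 CPM.

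Stress-responsive Atf3, by contrast, was scarce in control library 1, at 1.89, 111 and 156 CPM in the control libraries and 212, 284 and 149 CPM in the fasted libraries, and Hspa1a, the inducible HSP70, was at 0.107, 40.95 and 6.87 CPM against 18.2, 20.3 and 39.3 CPM. Fos, the partner of Jun in AP-1, was at 639, 2397 and 1553 CPM against 2708, 2210 and 3319 CPM, so its highest library was fasted library 3, as for Dusp1. Tnf, whose transcript is bound by tristetraprolin, was at 2.21, 51.1 and 76.5 CPM against 104, 109 and 48.2 CPM.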
